A study of Oryza sativa with 3 samples.

Results

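Fragments of proline tRNA (tRNA-Pro) were followed through pollen development in rice (Oryza sativa), cultivar Guichao No.2. Members are all listed sequences whose parent tRNA carries the anticodon AGG, CGG, TGG or GGG, as the deposited lists label it. They number 832 of the 18424 distinct sequences over 3 stages. Field-grown spores were separated on sucrose into uninucleate microspores (UNM), the haploid spores before the first pollen division, bicellular pollen (BCP), whose generative cell lies inside the vegetative cell, and the later tricellular pollen (TCP), which carries sperm cells. Each stage has 1 small RNA library from total RNA, and no stage carries a treatment or a mutation. The UNM list holds 230 of these sequences among 5477, the BCP list 670 among 14717 and the TCP list 397 among 8633. No sequence is labelled GGG in any list, where 3 counts would be a share of 6.05e-05% of reads in BCP and 0.000437% in UNM. The lists hold tRNA fragments alone, so the stages could not be checked against marker genes.

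Cells cut tRNAs into small RNAs that are named after the place of the cut. A cut in the anticodon loop splits the tRNA near its middle, and a cut in the D arm leaves a short 5′ fragment. Proline codons are read in the plant cytosol by tRNAs with the anticodons AGG, CGG and UGG (written TGG in the lists), while plastids use a single tRNA-Pro with UGG. Fragments of both can therefore stand under 1 anticodon label.

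Sequences with the same first 13 bases were grouped, and 5 groups with at least 50 summed reads carried the tRNA placement motif (U, purine, any base, pyrimidine, any pair of bases, A) at bases 8 to 14, where it falls in fragments whose 5′ end is that of the whole tRNA. Each is named here by its first 7 bases, the strand of the acceptor stem. The most abundant fragment of each group follows, with those 7 bases in capitals, because the acceptor strand tells the groups apart. A group can still join several parent tRNAs, as GGGCATT fragments are labelled both AGG and TGG. For AGGGATG the third most abundant tRNA-Pro fragment of BCP is added, since the results below turn on it.
AGGGATG, 16 nt: AGGGATGtagcgcagc
AGGGATG, 26 nt: AGGGATGtagcgcagcttggtagcgc
GGGTGTT, 30 nt: GGGTGTTtggtctagtggtatgattctcgc
GGGCATT, 32 nt: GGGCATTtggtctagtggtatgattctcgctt
GGGGATT, 32 nt: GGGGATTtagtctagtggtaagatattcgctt
GGGCGTT, 30 nt: GGGCGTTtggtctagtggtatgattctcgc

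AGGGATG is the start of the plastid tRNA-Pro as known from textbook sequences, and GGGCATT is known from cytosolic tRNA-Pro of Arabidopsis. No plastid or nuclear genome was matched here, so AGGGATG is called plastid-type only in this sense. In the GGGTGTT group, and likewise in those of GGGCATT and of GGGCGTT, the anticodon lies at bases 33 to 35 of the fragment and its loop at bases 31 to 37, and listed sequences hold the paired stem on both sides of the loop. In the AGGGATG group the letters of the anticodon lie at bases 35 to 37, and no listed sequence holds the loop with both strands of its stem. No GGGGATT fragment reached an anticodon, so its label AGG rests on the deposited list alone.

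The UNM list holds 686685 reads, of which 2647 are tRNA-Pro, and the BCP list 4958412 reads, of which 88277 are. Numbers in the TCP list end at 28 and were not taken as reads, so TCP entered by presence only. Shares are percentages of the tRNA-derived reads in a list. With 1 library per stage no difference has a replicate check and no test between stages was made. The values in parentheses are exact 95% intervals, and since the reads carry no molecular identifiers these cover counting error alone. A share cannot tell a change in one fragment from the opposite change in the rest, and fewer cells of a type cannot be told apart from less RNA per cell. Scaling the libraries by the median of ratios of single sequences, in place of their totals, adds 0.78 to every log2 ratio below, and directions are given relative to the totals.

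The share of tRNA-Pro fragments was compared between bicellular pollen and microspores. They made up 1.78% of BCP reads (1.77 to 1.79) and 0.385% of UNM reads (0.371 to 0.400), a ratio of 4.62 (4.44 to 4.80). Fragments labelled AGG had 16756 reads in BCP and 212 in UNM, 10.9-fold higher in share (9.56 to 12.6). Those labelled CGG had 29391 reads in BCP and 505 in UNM, 8.06-fold higher (7.38 to 8.82). Those labelled TGG had 42130 reads in BCP and 1930 in UNM, 3.02-fold higher (2.89 to 3.17). TGG was the most frequent label in both libraries, with 47.7% of tRNA-Pro reads in BCP and 72.9% in UNM, but the label joins plastid-type fragments with others.

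Lengths differed by label as well. Fragments of at least 30 nt made up 52.6% of AGG reads in BCP and 14.6% in UNM, and 13.0% of TGG reads in BCP and 0.984% in UNM. For CGG they were the larger part in both libraries, with 65.2% in BCP and 57.8% in UNM. The commonest length was 32 nt in BCP and 13 nt in UNM for AGG, 30 nt in BCP and 33 nt in UNM for CGG, and 16 nt in both for TGG.

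Fragments that hold the first base of a group made up 78.4% of tRNA-Pro reads in BCP and 82.7% in UNM, and the groups differed in the size of their ratios. Plastid-type AGGGATG fragments had 31484 reads in BCP and 1722 in UNM, 2.53-fold higher in share (2.41 to 2.66). GGGTGTT fragments, all labelled CGG, had 24216 reads in BCP and 384 in UNM, 8.73-fold higher (7.90 to 9.68). GGGCATT fragments, labelled AGG or TGG, had 10530 reads in BCP and 60 in UNM, 24.3-fold higher (18.9 to 31.9). The intervals of these 3 groups do not overlap.

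The smaller groups were also higher in BCP. GGGCGTT fragments, labelled TGG, had 1432 reads in BCP and 23 in UNM, 8.62-fold higher (5.72 to 13.6), an interval that covers the value of the CGG group above. Fragments that begin GGGGATT had 1565 reads in BCP and 1 in UNM, a ratio of 217 (38.8 to 8566). Plastid-type starts made up 35.7% of tRNA-Pro reads in BCP (35.3 to 36.0) and 65.1% in UNM (63.2 to 66.9).

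Plastid-type fragments differed in length between the libraries. The 16-nt fragment, which ends inside the D loop, had 10447 reads in BCP and 1280 in UNM, and it was the most abundant tRNA-Pro sequence of both. Its share was 0.211% in BCP and 0.186% in UNM, a ratio of 1.13 (1.07 to 1.20). The 14-nt form had 527 reads in BCP and 137 in UNM, a share 1.88-fold lower in BCP (1.54 to 2.27). The 13-nt form had 363 reads in BCP and 107 in UNM and was 2.13-fold lower (1.70 to 2.65). On the log2 scale the 14-nt form is at -0.91 and the 13-nt form at -1.09. With scaling by the median of ratios they are at -0.13 and -0.31, so these falls are small there.

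The 15-nt form and most forms longer than 16 nt were higher in BCP. The 15-nt form had 1274 reads in BCP and 44 in UNM, 4.01-fold higher (2.97 to 5.55). The 17-nt form had 3999 reads in BCP and 65 in UNM, 8.52-fold higher (6.67 to 11.1). The 20-nt form had 820 reads in BCP and 30 in UNM. The 24-nt form had 3998 reads in BCP and 11 in UNM, 50.3-fold higher (28.1 to 101). The 26-nt form printed above had 8033 reads in BCP and 7 in UNM, 159-fold higher (77.1 to 395). It ends at base 26, the last of the bases 23 to 26 that can pair with bases 10 to 13 as the D stem. Of plastid-type reads, 57.0% in BCP and 98.5% in UNM were at most 20 nt long. Those of 21 to 29 nt had 40.1% in BCP and 1.39% in UNM. Few reached the anticodon loop in either library. Forms that end at bases 32 to 39, in the loop or at the base before it, had 884 reads in BCP (2.81%) and 0 in UNM. The exact upper limit for UNM is 0.214%. In UNM 2 reads of 40 nt run past the loop. The 34-nt form had 630 of the 884 reads in BCP and 0 in UNM. With 0 set to 3 counts it was 29.1-fold higher in share (interval from 23.6 upward).

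In BCP, fragments of the other starts that reach an anticodon mostly ended at its loop. Of GGGTGTT reads, 77.3% in BCP (76.8 to 77.9) and 68.8% in UNM (63.9 to 73.4) ended at bases 30 to 37, in the loop or at the base before it. For GGGCATT it was 88.7% in BCP (88.0 to 89.3) and 46.7% in UNM (33.7 to 60.0), and for GGGCGTT 88.9% in BCP (87.2 to 90.5) and 52.2% in UNM (30.6 to 73.2). These UNM shares rest on 60 GGGCATT and 23 GGGCGTT reads.

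Among these long fragments the position of the last base differed between the libraries. The 30-nt GGGTGTT fragment, which stops at the last base before the loop, had 8603 reads in BCP and 13 in UNM, 91.6-fold higher (53.6 to 172). The 31-nt form had 1621 reads in BCP and 72 in UNM, only 3.12-fold higher (2.46 to 4.01), and the 32-nt form 3653 and 46, 11.0-fold higher (8.23 to 15.05). The 33-nt form, which ends on the first anticodon base, had 3125 reads in BCP and 78 in UNM and was the most abundant form of the group in UNM. The 34-nt form had 1725 reads in BCP and 18 in UNM. The 35-nt form, which holds the whole anticodon, had 0 reads in BCP and 37 in UNM. With 0 set to 3 counts it was 89.1-fold lower in share (interval from 68.9 upward). The TCP list holds it.

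The 31-nt form also stood out by its low ratio in the remaining groups that reach the loop. For GGGCATT, the 30-nt form had 1846 reads in BCP and 1 in UNM and the 32-nt form 5939 and 19, against 74 reads in BCP and 6 in UNM for the 31-nt form, a ratio of 1.71 (0.749 to 4.80). For GGGCGTT, the 30-nt form had 890 reads in BCP and 1 in UNM and the 32-nt form 253 and 1, against 29 in BCP and 7 in UNM for the 31-nt form, a ratio of 0.574 (0.246 to 1.55). These groups share most of their bases, so the 3 patterns are not independent, and the UNM counts are small.

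Short 5′ forms of GGGTGTT were lower in BCP. GGGTGTT fragments of at most 20 nt had 91 reads in BCP and 83 in UNM, 6.59-fold lower in share (4.83 to 8.97). The 18-nt form alone had 39 reads in BCP and 57 in UNM, 10.6-fold lower (6.90 to 16.3). Short GGGCGTT forms had 11 reads in BCP and 9 in UNM, a ratio of 0.169 (0.0638 to 0.462). Short GGGCATT forms had 129 and 28, a ratio of 0.638 (0.421 to 0.998), which is -0.65 on the log2 scale and 0.13 when the libraries are scaled by the median of ratios. The 23-nt GGGTGTT form was higher in BCP, with 3167 reads in BCP and 17 in UNM, 25.8-fold higher (16.1 to 44.3).

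The anticodon label was compared with the letters of the fragments, because GGGCATT fragments are labelled both AGG and TGG. Of the GGGCATT reads, 86.0% in BCP and 96.7% in UNM end before the anticodon and hold no base of it. These were almost all labelled AGG, with 9021 reads in BCP against 33 labelled TGG, and 58 in UNM against 0. The reads that do reach the first anticodon base read otherwise. In the following forms the anticodon bases are in capitals. The 32-nt GGGCATT form stops before them and has none, and a GGGTGTT form is given for comparison.
GGGCATT, 32 nt: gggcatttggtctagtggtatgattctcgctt
GGGCATT, 33 nt: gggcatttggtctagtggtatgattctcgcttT
GGGCATT, 34 nt: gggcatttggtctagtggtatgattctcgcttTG
GGGTGTT, 33 nt: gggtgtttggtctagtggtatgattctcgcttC

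In BCP, 1474 GGGCATT reads carry T at base 33 and 2 carry A, while in UNM 2 carry T and 0 carry A. No listed sequence of this group carries G there. In many tRNAs an A at the first anticodon base is converted to inosine, which sequencing reads as G, and whether the lists admit such a mismatch is not given in the sources used here. The 32-nt form is labelled AGG in the BCP and UNM lists and TGG in the TCP list. Over all tRNA-Pro sequences, 74 had more than 1 label over the lists, 46 of them AGG and TGG. They held 14.97% of tRNA-Pro reads in BCP and 8.16% in UNM. Of the 16756 reads labelled AGG in BCP, 9021 are GGGCATT fragments and 1565 GGGGATT fragments that stop before the anticodon. A RefSeq gene table of rice assembly ASM3414082v1 lists 14 tRNA-Pro genes with AGG, 8 with CGG and 12 with UGG.

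Fragments that begin after the first base, but lie inside the same 5′ stretches, were more frequent in BCP. They had 17844 reads in BCP and 177 in UNM, 13.96-fold higher in share (12.04 to 16.3). This was 20.2% of tRNA-Pro reads in BCP (19.9 to 20.5) and 6.69% in UNM (5.76 to 7.71). In BCP they were mostly of middle length, with 77.1% at 21 to 29 nt, against 16.9% in UNM, where 80.2% were at most 20 nt long.

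In BCP the most frequent first base was base 8, the conserved U that follows the acceptor stem, with 4031 reads in BCP and 10 in UNM. In UNM it was base 13, with 357 reads in BCP and 33 in UNM. Bases 2 to 7 followed in BCP with 741 to 2718 reads each. The most abundant of these fragments, 25 nt long, is tggtctagtggtatgattctcgctt. It runs from base 8 to base 32 and had 1296 reads in BCP and 0 in UNM, 59.8-fold higher with 0 set to 3 counts (interval from 48.6 upward). It fits the GGGTGTT group and those of GGGCATT and of GGGCGTT alike, as did 36.6% of such reads in BCP and 52.0% in UNM. Outside the plastid-type and GGGGATT groups, 92.0% of the later-starting reads in BCP (91.6 to 92.4) and 43.2% in UNM (35.6 to 51.0) ended in the anticodon loop or at the base before it. Fragments with the first base intact had such an end in 81.1% in BCP (80.7 to 81.5) and 65.1% in UNM (60.6 to 69.4). Only later-starting fragments inside a listed 5′ stretch were counted. In these groups the stretches end by base 35, so no counted later start could end past the loop. Those that run further stand among the remaining sequences below. Later-starting reads that end on the last anticodon base, base 35, had 917 reads in BCP and 34 in UNM, so that end occurs in BCP although the 35-nt GGGTGTT form does not.

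Fragments of the 3′ side were recognised by the 7 bases that pair with the acceptor strand of a group. They are shown with those bases in capitals, because those of the plastid type were higher in BCP and those of the other tRNAs together lower.
AGGGATG, 34 nt: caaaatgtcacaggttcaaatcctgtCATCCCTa
GGGTGTT, 35 nt: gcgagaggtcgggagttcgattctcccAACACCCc
GGGCATT, 16 nt: attctcggAATGCCCc

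Plastid-type 3′ fragments had 679 reads in BCP and 0 in UNM. With 0 set to 3 counts they were 31.3-fold higher in share (interval from 25.4 upward), and 4.39-fold among fragments of at most 33 nt. Of the 679 reads in BCP, 98.8% were at least 30 nt long, and the 34-nt fragment above had 349 of them. It ends on the base that follows the acceptor strand. The 3′ fragments of the other groups had 299 reads in BCP and 142 in UNM, 3.43-fold lower in BCP (2.79 to 4.20). GGGCATT gave most of these in UNM, with 170 reads in BCP and 104 in UNM, 4.42-fold lower (3.43 to 5.67), and 85.9% of them in BCP and 98.1% in UNM were at most 20 nt long. For GGGTGTT, 113 reads in BCP and 25 in UNM gave a ratio of 0.626 (0.403 to 1.01), which is -0.68 on the log2 scale and 0.10 with scaling by the median of ratios. At least 30 nt long were 95.6% of them in BCP and all 25 in UNM.

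A mature tRNA ends in CCA, which is added after transcription. Of the 3′ fragments, 68.2% of the plastid-type reads in BCP stopped on an A 1 base past the acceptor strand, and 83.2% of GGGTGTT reads in BCP and 92.0% in UNM stopped on a C there. For GGGCATT it was 74.1% in BCP and 41.3% in UNM, while 18.2% in BCP and 51.0% in UNM ran on to CC. The few GGGCGTT reads ran on to CC in 25% of 16 in BCP and 53.8% of 13 in UNM. Only 1 read in BCP and 1 in UNM ended in the letters CCA. Past the acceptor strand the BCP read has CA alone and the UNM read CCA. The reference and mapping settings are not given, so whether reads with an added CCA could enter the lists is not known. The remaining tRNA-Pro sequences matched neither a listed 5′ stretch exactly nor all 7 bases of a 3′ acceptor strand, and some stop inside that strand. They had 228 reads in BCP and 138 in UNM, 4.37-fold lower (3.51 to 5.42). They made up 0.258% of tRNA-Pro reads in BCP and 5.21% in UNM.

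A sequence entered the comparison one by one when its reads in BCP and UNM summed to 50 or more. It was called where the ratio of shares was at least 2-fold and its interval left out 1. Of 737 tRNA-Pro sequences in BCP or UNM, 111 passed this minimum, 56 of them with 0 reads in UNM, which the minimum makes higher by rule. In BCP 104 of the 111 were higher, 2 were lower and 5 were neither. Over all 1794 sequences of the lists that passed, 68.2% were higher and 17.2% lower, and 418 had 0 reads in UNM. The median log2 ratio was 2.82 for tRNA-Pro and 2.01 over all tested sequences. The minimum admits more of the deeper BCP list, and with BCP reads scaled to the UNM total 38 of 42 tRNA-Pro sequences were higher and 2 lower, against 56.2% and 30.6% of all sequences tested so.

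By place, 38 of 44 tested fragments with the first base intact were higher and 2 lower. All 62 with a later start were higher, but 45 of them had 0 reads in UNM and were higher by rule. The same holds for the 4 of 5 higher sequences of the 3′ side, each with 0 reads in UNM. By length, 21 of 27 of at most 20 nt were higher, against 44.2% of all tested sequences of that length. All 59 of 21 to 29 nt were higher, against 84.8% of all, and 24 of 25 of at least 30 nt, against 92.5% of all. Of these 27, 59 and 25 sequences, 10, 38 and 8 had 0 reads in UNM and were higher by rule. Over all tested sequences of these lengths it was 99 of 831, 161 of 442 and 158 of 521. The contrast by length is thus partly set by the minimum. The 2 lower sequences are the 18-nt GGGTGTT and the 13-nt AGGGATG forms described above. The 30-nt GGGCATT fragment had a ratio of 256 (45.8 to 10103). When only the most abundant tested sequence is kept for each set of first 13 nt, the largest ratios were those of the 30-nt GGGCGTT fragment and of the 32-nt GGGGATT fragment. Each had 890 reads in BCP and 1 in UNM, a ratio of 123 (22.1 to 4874).

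Fragments of middle length were a larger part of tRNA-Pro than of tRNA-His, tRNA-Leu or tRNA-Phe in BCP, a difference with no test in a single library. Those of 21 to 29 nt made up 38.1% of tRNA-Pro reads in BCP (37.8 to 38.5) and 4.19% in UNM (3.46 to 5.03). These 3 groups, which also had higher shares in BCP, had 6.43% (His), 4.73% (Leu) and 6.49% (Phe) in that class in BCP and 1.34%, 5.30% and 5.55% in UNM. All other listed reads together had 7.34% in BCP and 2.57% in UNM. For fragments of at least 30 nt, tRNA-Pro had 37.9% in BCP (37.6 to 38.2) and 12.9% in UNM (11.7 to 14.3), while all other reads had 51.0% in BCP and 4.002% in UNM. The class of at most 20 nt held 24.0% of tRNA-Pro reads in BCP (23.7 to 24.2) and 82.9% in UNM (81.4 to 84.3).

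The tricellular stage was compared through which sequences its list holds. Of its 397 tRNA-Pro sequences, 84 are labelled AGG, 100 CGG and 213 TGG, and 26.2% are at least 30 nt long, against 14.8% of the tRNA-Pro sequences listed in UNM and 17.01% in BCP. Over whole lists this share was 25.6% in TCP, 14.6% in UNM and 19.9% in BCP, close to the tRNA-Pro values. TCP shares 107 sequences with UNM and 292 with BCP, which is 27.0% and 73.6% of the TCP sequences, and 46.5% of those of UNM and 43.6% of those of BCP. Over whole lists, the shared sequences are 34.9% and 71.4% of those of TCP, and 55.0% of those of UNM and 41.9% of those of BCP, and BCP is the longest list. All 3 lists hold 96 tRNA-Pro sequences, and 94 stand in TCP alone.

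Abundant fragments were mostly present in TCP. It lists 71 of the 73 tRNA-Pro sequences with at least 100 reads in BCP, and all 3 of those with as many in UNM. The 2 missing are later-starting fragments of 18 and 19 nt with 141 and 104 reads in BCP. With at least 10 reads, it lists 183 of 253 tRNA-Pro sequences of BCP and 20 of 28 of UNM. The shares over all listed sequences at these read numbers are not given here, so this is not shown to be particular to tRNA-Pro. All 5 groups of starts are listed in TCP, with 25 AGGGATG, 20 GGGTGTT, 15 GGGCATT, 15 GGGGATT and 11 GGGCGTT sequences. Plastid-type 3′ fragments, absent from the UNM list, stand with 25 sequences in BCP and 49 in TCP.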

How the data were processed

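Each deposited list gives an anticodon, a fragment sequence and a number, per the file headers. For UNM and BCP the authors deposited a raw read count for each sequence, with no normalization. The TCP numbers, of 1 to 28, were used only for presence. Per the submitters' processing notes, the tool was Bowtie 1.1.2. Not given in the sources used here: reference, build, trimming and mapping settings. Listed lengths end at 40 nt in UNM and TCP and at 39 nt in BCP, with gaps below the end. The BCP list holds 1 sequence of 37 nt, 0 of 38 nt and 286 of 39 nt. The UNM list holds 13 of 37 nt, 0 of 38 and 39 nt and 95 of 40 nt.

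Shares were taken of all listed reads, with Clopper-Pearson 95% intervals. Each ratio has an exact 95% interval from the binomial split of its reads between libraries (Python 3.11.15, scipy 1.17.1). A count of 0 was set to 3 reads for a ratio. Sequences were joined across lists by identity, and 1 sequence of 3 reads in BCP labelled both CGG and CCC was left out of the single-sequence comparison. The calls were tested on simulated data that vary by counting error alone, which cannot show how calls behave between libraries without replicates. Named sequences are the 10 most abundant of each library, the most abundant per anticodon, per start and ending in CCA, and the 5 highest and 5 lowest ratios, keeping 1 of those with the same first 13 nt. Only those the results turn on are printed. Further lengths named within a group, the long 3′ fragments, the groups of starts and the places on the tRNA were chosen after the values were seen. The members and lists were chosen with earlier results of these data known.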

Additional observations from a re-analysis of the deposited data

How the results depend on the processing

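With 1 library per stage, no library could be left out and only counting error is covered. No paired analysis was possible because each stage has a single library. The log2 ratio of the tRNA-Pro share, 2.21 as reported, was 2.38 among fragments of at most 33 nt, 2.11 without sequences of several labels, 2.98 without the 16-nt plastid-type fragment, 2.98 with scaling by the median of ratios, 2.84 without tRNA-Asp in the totals, 2.33 with at least 10 reads in 1 library and 0.12 by distinct sequences. Scaling by the median of ratios raises every log2 ratio by 0.78, and leaving out tRNA-Asp by 0.63. For AGG (3.45) these 2 scalings gave 4.23 and 4.08, the minimum of 10 reads 3.85 and distinct sequences 0.029. For CGG (3.01) the same 4 alternatives gave 3.79, 3.64, 3.23 and 0.094, and fragments of at most 33 nt 3.35. For TGG (1.60) they gave 2.37, 2.23, 1.67 and 0.18, fragments of at most 33 nt 1.71, and leaving out the 16-nt fragment 2.76. Reads of 30 nt or more as a part of tRNA-Pro, 37.9% in BCP and 12.9% in UNM, were 34.6% and 10.1% among fragments of at most 33 nt, 43.0% and 25.0% without the 16-nt fragment, and 17.01% and 14.8% by distinct sequences. Without sequences of several labels BCP had 35.5%. Of the tRNA-Pro sequences tested, 104 of 111 were higher as reported (68.2% of all tested sequences of the lists). It was 49 of 52 with a minimum of 200 reads (69.8% of all tested), 38 of 42 with the minimum on scaled reads (56.2% of all tested) and 107 of 271 with a minimum of 10 (30.4% of all tested). The count of lower sequences, 2 as reported, was 1 among fragments of at most 33 nt, with either scaling, at a minimum of 200 reads or at 4-fold. At a minimum of 10 it was 22 of 271 (17.5% of all tested). Counted by distinct sequences, an alternative that removes the read numbers, the groups of starts turned to -0.73 (AGGGATG), -1.20 (GGGTGTT), -0.49 (GGGCATT) and -0.69 (GGGCGTT). By reads they kept their direction in the other alternatives, which for the groups and places were added after seeing the data. The 3′ fragments outside the plastid type lay between -1.82 and -0.49 and the later starts between 0.74 and 4.58. The plastid-type 3′ fragments, 4.97 as reported with UNM set to 3 counts, were at 2.14 among fragments of at most 33 nt and 1.63 by distinct sequences.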

Other observations

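The first base of the fragments differed from that of the whole lists. Reads that begin with A made up 37.5% of tRNA-Pro reads in BCP and 68.5% in UNM, against 3.90% of all listed reads in BCP and 4.02% in UNM. Reads that begin with G made up 50.8% of tRNA-Pro reads in BCP and 21.6% in UNM, against 77.8% and 77.7% of all listed reads. The plastid-type group is the one that begins with A, and the other 4 groups begin with G.

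Reads were concentrated on few sequences in both libraries. The 10 most abundant tRNA-Pro sequences held 59.8% of tRNA-Pro reads in BCP and 72.6% in UNM, and the 16-nt plastid-type fragment alone held 11.8% in BCP and 48.4% in UNM. Of the tRNA-Pro sequences, 197 of 670 in BCP and 119 of 230 in UNM had a single read.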
